A study of Homo sapiens with 8 samples.

Results

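The AP-1 and EGR immediate early genes examined were FOS, FOSB, FOSL1, FOSL2, JUN, JUNB, JUND, EGR1 and IER2, each with every probe set for which the platform annotation gives its symbol alone. They held 30 of the 49495 probe sets on the arrays and 9 of 18244 genes with a probe set of 1 symbol. The cells were SK-MEL-5, an established line from a human melanoma, profiled on 8 Affymetrix arrays, 2 in each of 4 groups. In one pair of groups, cells received THZ1, a covalent inhibitor of the transcription kinase CDK7, at 250 nM for 6 h in 25 uM DMSO, or 25 uM DMSO alone, with no duration given for the solvent. In the other pair, cells were transfected with an siRNA against MITF, the transcription factor of the melanocyte lineage (siMITF), or with a non-targeting siRNA (siCtrl), with no time of harvest given. All groups shared a serum-containing medium, and the labels name no timed stimulus. In such bulk RNA, fewer cells holding a transcript and less transcript per cell cannot be told apart.

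Immediate early genes are switched on within minutes of a growth or stress signal, without new protein synthesis, and most of their mRNAs are short-lived. FOS and JUN family proteins pair through leucine zippers to form AP-1, which binds DNA as a dimer, and JUN proteins can also pair with each other. EGR1 is a zinc finger transcription factor induced by the same signals, and IER2 is a nuclear protein of the same early response. In melanoma the MAPK pathway feeds these genes through SRF, which binds the CArG box, and the ternary complex factors that join it. It also acts through CREB, which binds the cyclic AMP response element with the core TGACG.

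On the scale relative to the median gene described below, the brightest probe sets of FOS, EGR1 and IER2 moved together in both comparisons. JUN moved against them, and 4 of the 6 EGR1 probe sets had positive changes with siMITF. The 250 bases upstream of the annotated start are shown for FOS, EGR1, IER2 and JUN. They are taken from RefSeq (GRCh38.p14), at chr14:75278578-75278827 (plus strand), chr5:138465229-138465478 (plus strand), chr19:13150161-13150410 (plus strand) and chr1:58784048-58784297 (minus strand). Capitals mark 4 motifs on either strand. These are the CArG box, the TATA motif TATAAA, the cyclic AMP response element core, and the EGR site, GCGNGGGCG.
FOS: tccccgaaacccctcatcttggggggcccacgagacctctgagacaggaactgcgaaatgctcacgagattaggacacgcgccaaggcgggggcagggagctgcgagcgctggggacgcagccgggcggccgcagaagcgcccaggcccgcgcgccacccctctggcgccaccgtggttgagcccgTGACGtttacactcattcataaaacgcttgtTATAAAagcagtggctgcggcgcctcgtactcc
EGR1: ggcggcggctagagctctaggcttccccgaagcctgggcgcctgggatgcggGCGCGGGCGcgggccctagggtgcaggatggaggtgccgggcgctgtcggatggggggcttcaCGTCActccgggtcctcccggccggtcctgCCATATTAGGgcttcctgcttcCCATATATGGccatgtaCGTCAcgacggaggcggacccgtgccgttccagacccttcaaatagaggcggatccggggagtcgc
IER2: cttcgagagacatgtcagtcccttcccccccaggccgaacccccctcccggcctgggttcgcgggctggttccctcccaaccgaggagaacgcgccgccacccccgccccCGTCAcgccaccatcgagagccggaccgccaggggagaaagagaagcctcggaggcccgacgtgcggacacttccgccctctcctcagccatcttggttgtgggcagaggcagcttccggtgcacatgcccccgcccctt
JUN: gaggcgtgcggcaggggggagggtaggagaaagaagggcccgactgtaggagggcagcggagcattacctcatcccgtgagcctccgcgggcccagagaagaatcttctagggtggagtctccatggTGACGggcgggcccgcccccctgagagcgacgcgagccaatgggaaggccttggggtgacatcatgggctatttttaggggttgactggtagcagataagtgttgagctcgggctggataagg

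Promoters were found for 8 members. On both strands of the 250 bases 5 motifs were searched, the 4 above and TGANTCA, 1 form of the AP-1 site. The sequences were in view when the motifs were chosen. TGACG was present in all 8, against 21.2% of 35116 promoters of the same length. In FOS it began 60 bases and in FOSB 56 bases upstream of the start, each ahead of a TATAAA at 28 and 25 bases, counted to the motif's end nearest the start. JUNB also held TATAAA, giving 3 of 8 members against 10.7% of all promoters. The CArG box was found in EGR1 alone, at 2 places, against 1.16% of all promoters, and EGR1 alone held GCGNGGGCG, against 8.41%. TGANTCA was found in 0 of the 8, against 6.57%. A match describes these letters and says nothing of binding. An absence holds only for these exact patterns within the 250 bases. Other forms of a site, and sites further upstream, were not searched.

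The deposited signals are on a scale that the series' design text calls normalized to cell number, and changes on it are called per cell. Arrays of 1 group could sit higher or lower for most genes at once, so changes are also given relative to the median gene, after centring of each array. Both are differences of log2(signal + 16), which understates the per-cell change of dim genes. It can also lift a dim gene, such as JUN, relative to the median gene where most genes fall, as with siMITF. The median signal of all probe sets was 51.1 and 67.6 on THZ1 arrays, against 61.3 and 76.1 on DMSO arrays, and 40.1 and 32.5 on siMITF arrays, against 51.1 and 59.3 on siCtrl arrays. Among ERCC spike-in RNAs, added in proportion to cell number, the 47 probe sets with a mean signal over 50 had median signals of 563 to 611 on the 4 drug arrays and 261 to 275 on the 4 siRNA arrays, so per-cell signals are not set against each other between these sets. The siMITF arrays read 1747 and 1168 for MITF itself, against 3436 and 3936 on the siCtrl arrays. This was a change of -1.35 per cell and of -0.72 relative to the median gene (limma adjusted p = 3.25e-04 for the latter). With THZ1 MITF had a relative change of -0.27 (limma adjusted p = 0.0498) and a per-cell change of -0.47 (limma adjusted p = 0.280). CDK7, whose protein THZ1 binds, had a relative change of -0.41 with THZ1 (limma adjusted p = 0.00148). Its per-cell change of -0.60 did not pass (limma adjusted p = 0.105), and its mRNA level is no check of the drug's binding. All 8 melanocyte lineage markers with a probe set were above the filter on low signal. Of 19 markers of fibroblasts, keratinocytes, leukocytes and endothelium, 6 were, led by LUM, a matrix proteoglycan gene, at 2325 and 2983 with THZ1, against 2067 and 2476 with DMSO. The summed signal of the 6 fibroblast markers was 2660 to 3447 with THZ1, against 2370 to 2863 with DMSO. With siMITF it was 734 to 976, against 1544 to 1866 with siCtrl. The melanocyte lineage sum was also lower with siMITF, at 17807 to 22116, against 28671 to 33007 with siCtrl. So were the keratinocyte, leukocyte and endothelial sums, while all these sums overlapped between THZ1 and DMSO. LUM made up most of the fibroblast sum on every array, while COL1A1, COL1A2 and COL3A1 were below the filter. The part of the fibroblast signal in the results below was not tested. Since no label tells whether replicate arrays stem from different cultures, the spread behind the p-values may be technical.

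With THZ1, IER2, FOS, EGR1 and JUNB rose relative to the median gene, while FOSL1 and JUN fell and FOSB, FOSL2 and JUND did not pass the test. The counts were 4 of 9 members higher, against 17.7% of 11946 tested genes, and 2 lower, against 21.1% (limma, adjusted p under 0.05 over all genes tested). The median member had a relative change of 0.05, beside 0.04 for all genes. Per cell 1 member, IER2, was higher, against 0.0753% of genes, and 0 were lower, against 10.0%. At an unadjusted p under 0.05, 2 were higher per cell, against 0.226% of genes, and 3 lower, against 19.2%.

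IER2 had signals of 589 and 907 with THZ1, against 358 and 445 with DMSO. Both THZ1 arrays lay above both DMSO arrays, and IER2 ranked 5 among the 11946 tested genes by size of rise. The log2 change per cell was 0.85 (SE 0.25, n = 2 per group, limma adjusted p = 0.00926). On the relative scale it was 1.05 (SE 0.09, adjusted p = 1.87e-05), or 2.07-fold higher. The per-cell call rested on single arrays: without THZ1 replicate 2 the change was 0.54 (adjusted p = 0.154), without DMSO replicate 1 it was 0.70 (adjusted p = 0.144), and without DMSO replicate 2 it was 0.9985 (adjusted p = 0.0509).

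FOS, the founding FOS family member, had signals of 911 and 1286 with THZ1, against 707 and 766 with DMSO. The groups did not overlap, and FOS ranked 19 by size of rise. Its relative change was 0.75 (SE 0.08, adjusted p = 1.19e-04), or 1.68-fold higher, beside a per-cell change of 0.55 (SE 0.25, adjusted p = 0.162) that was 0.79 without THZ1 replicate 1 and 0.30 without THZ1 replicate 2. The 4 FOS probe sets gave relative changes of 0.59 to 0.87.

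EGR1 had signals of 441 and 665 with THZ1, against 399 and 451 with DMSO on its brightest probe set. One THZ1 array lay within the DMSO range on the deposited scale, but after centring both THZ1 arrays were above both DMSO arrays, at 8.87 and 9.04, against 8.35 and 8.48 (log2 level relative to the median gene). The relative change was 0.54 (SE 0.08, adjusted p = 8.90e-04) and the per-cell change 0.34 (SE 0.25, adjusted p = 0.551). The per-cell value was 0.63 without THZ1 replicate 1 and 0.05 without THZ1 replicate 2. All 6 EGR1 probe sets had positive relative changes, from 0.32 to 0.78. JUNB, a JUN family member that can restrain JUN, had signals of 144 and 189 with THZ1, against 122 and 159 with DMSO, which overlapped. Its relative change was 0.42 (SE 0.07, adjusted p = 0.00120) and its per-cell change 0.22 (SE 0.25, adjusted p = 0.835), with a range of 0.04 to 0.40 when single arrays were left out.

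**Figure D1:**
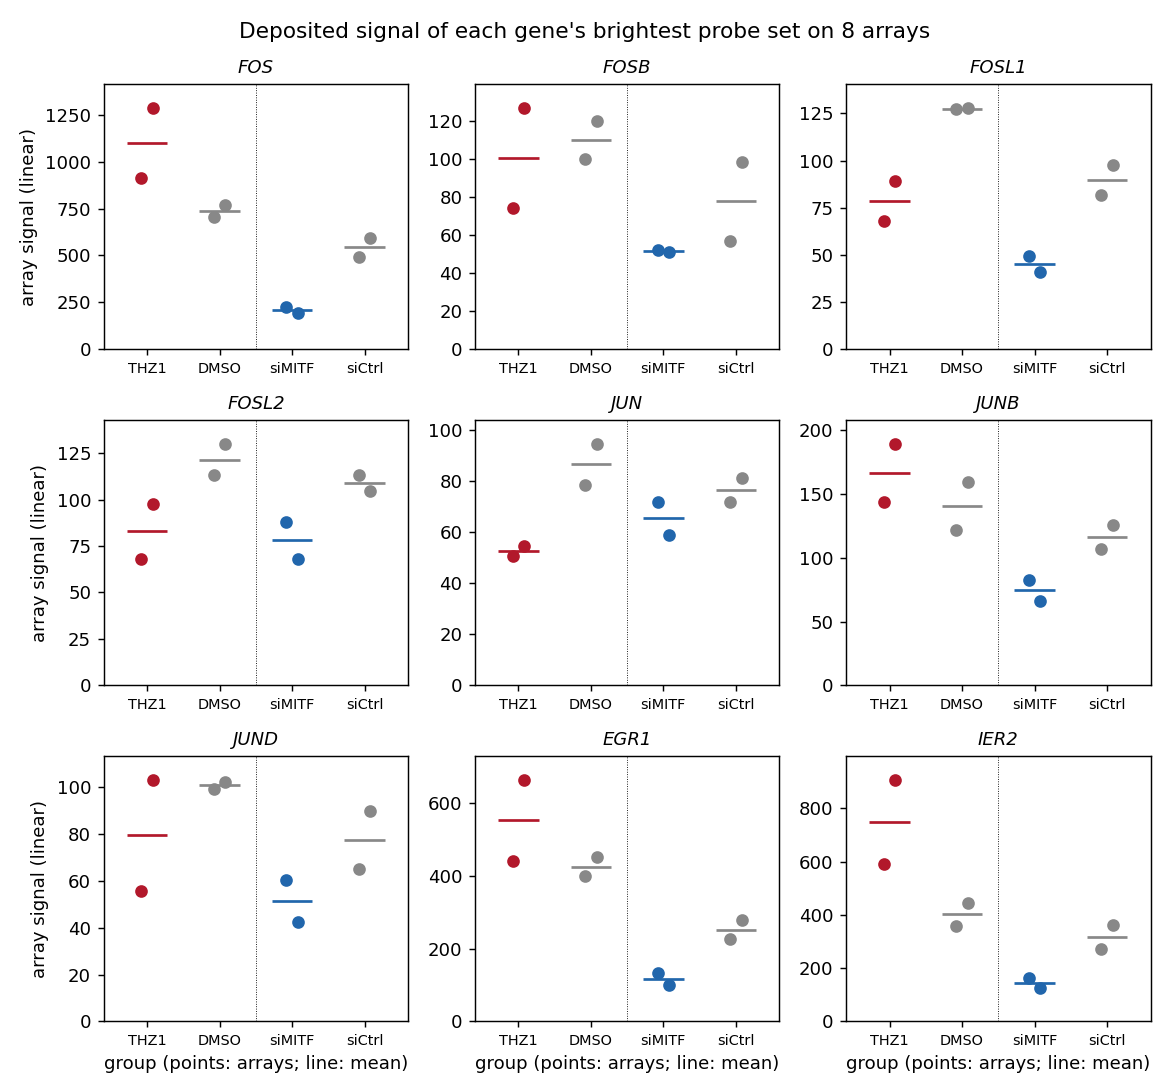
Deposited array signal (linear, from 0) of the brightest probe set of each of the 9 genes, in 4 groups of 2 arrays, with a point per array and a line at the group mean. FOS and IER2 have both THZ1 arrays above both DMSO arrays, JUN, FOSL1 and FOSL2 have both below, and for all 9 genes the siMITF points lie at or below the siCtrl points.

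JUN, the AP-1 subunit that pairs with FOS, went the other way. Its signals were 50.7 and 54.8 with THZ1, against 78.6 and 94.7 with DMSO, and the groups did not overlap. The relative change was -0.38 (SE 0.10, adjusted p = 0.0157), or 1.30-fold lower, and the per-cell change was -0.58 (SE 0.25, adjusted p = 0.131). Relative changes of the 4 JUN probe sets ran from -0.57 to -0.03. The call on JUN was lost without THZ1 replicate 2 (-0.22, adjusted p = 0.109), without DMSO replicate 1 (-0.34, adjusted p = 0.0822), at a pseudocount of 64 (-0.20, adjusted p = 0.0954) and with its own variance (adjusted p = 0.0962).

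FOSL1, which encodes FRA-1, a FOS family protein associated with the undifferentiated melanoma state, had signals of 68.1 and 89.0 with THZ1, against 127 and 128 with DMSO. Its relative change was -0.41 (SE 0.10, adjusted p = 0.00817) and its per-cell change -0.61 (SE 0.25, adjusted p = 0.0983). The 6 FOSL1 probe sets all had negative relative changes, but they split: 3 lay at -0.41 to -0.42 and 3 at -0.02 to -0.10. Without DMSO replicate 1 the relative change was -0.27 (adjusted p = 0.0625), and with the gene's own variance the adjusted p was 0.0663.

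FOSB and JUND were dim and their arrays overlapped. FOSB had signals of 74.5 and 127 with THZ1, against 100.0 and 120 with DMSO, and a relative change of 0.05 (95% interval -0.25 to 0.36, adjusted p = 0.779). JUND, a JUN family member often present in resting cells, had 55.9 and 103 with THZ1, against 99.2 and 103 with DMSO, and a relative change of -0.14 (95% interval -0.41 to 0.13, adjusted p = 0.399). Both intervals allow changes as large as -0.25, so these values do not show that either gene was unaffected.

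FOSL2, which encodes FRA-2, gave opposite answers on different probe sets. Its brightest, 11763169_at, had signals of 68.2 and 97.8 with THZ1, against 113 and 130 with DMSO, and a relative change of -0.29 that did not pass the test over genes (SE 0.11, adjusted p = 0.0564). On 11763171_at the signals were 27.4 and 39.98 with THZ1, against 117 and 125 with DMSO, a far larger gap. In a fit over 27170 probe sets with 1 symbol this probe set had a relative change of -1.28 (limma adjusted p = 1.29e-05) and a per-cell change of -1.47 (adjusted p = 3.02e-07). 11763170_s_at lay between, at 34.8 and 52.1 with THZ1, against 94.9 and 101 with DMSO, a relative change of -0.75 (adjusted p = 1.80e-04). 11731599_a_at moved up, with signals of 89.7 and 128 with THZ1, against 62.1 and 75.9 with DMSO and a relative change of 0.74 (adjusted p = 3.68e-04). The fifth, 11731600_a_at, was below the filter, at 22.7 and 34.2 with THZ1, against 33.04 and 39.1 with DMSO. Where in the FOSL2 transcripts each probe set lies is not given in the sources used here, so no direction is given for the gene.

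**Figure D2:**
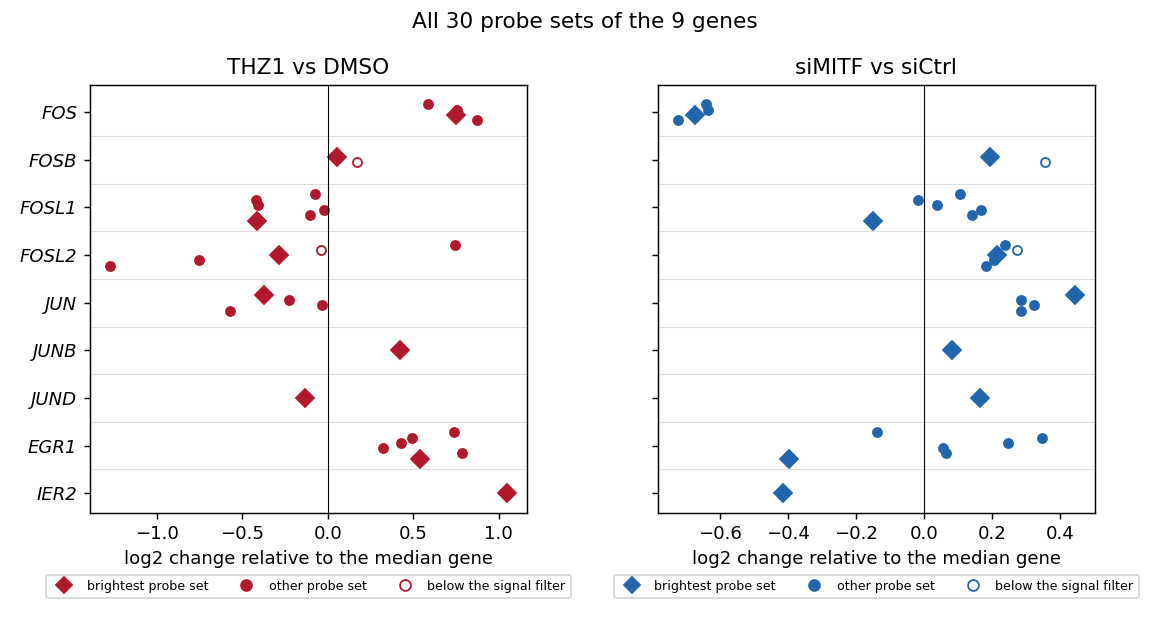
Change of all 30 probe sets relative to the median gene (log2, horizontal) for THZ1 minus DMSO and siMITF minus siCtrl, with diamonds for the brightest probe set of a gene, circles for the others and open symbols below the filter on low signal. FOSL2 spreads from -1.28 to 0.74 with THZ1 but only from 0.18 to 0.27 with siMITF, while the EGR1 probe sets lie on both sides of 0 with siMITF.

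Over all 30 probe sets, 8 had both THZ1 arrays above both DMSO arrays on the deposited scale and 11 had both below. Of the 27170 probe sets above the filter, 1.45% and 27.6% were so placed. Probe sets of the same gene are not independent, so these counts are not counts of genes. The 8 belonged to FOS, FOSL2, EGR1 and IER2, and the 11 to FOSL1, FOSL2 and JUN. After centring, 13 of the 30 were above, beside 40.8% of the probe sets above the filter, and 10 below, beside 27.7%. The 13 belonged to FOS, FOSL2, JUNB, EGR1 and IER2, and the 10 to FOSL1, FOSL2 and JUN. Of the 30, 28 were above the filter, the exceptions being 11717345_a_at of FOSB and 11731600_a_at of FOSL2.

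With siMITF, FOS, IER2 and, on its brightest probe set, EGR1 fell further than the median gene and JUN rose relative to it. The counts relative to the median gene were 3 of 9 members lower, against 24.7% of tested genes, and 1 higher, against 19.5%. Per cell 5 were lower, FOS, FOSL1, JUNB, EGR1 and IER2, against 63.4% of genes, and 0 were higher, against 0.326%. At an unadjusted p under 0.05, 5 were lower per cell, against 69.6% of genes, and 0 higher, against 0.427%. On the deposited scale all 30 probe sets had both siMITF arrays below both siCtrl arrays, as did 89.6% of probe sets above the filter, while 0 had both above, against 0.843%. After centring, 8 of the 30 were below, beside 39.1%, and 16 above, beside 34.9%. The 8 belonged to FOS, FOSL1, EGR1 and IER2. The 16 belonged to FOSB, FOSL1, FOSL2, JUN, JUNB, JUND and EGR1, and probe sets of the same gene are not independent. The median member changed by -0.55 per cell, beside -0.63 for all genes, and by 0.08 relative to the median gene, beside 0.0014.

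FOS had signals of 224 and 195 with siMITF, against 492 and 594 with siCtrl, with no overlap. The log2 change per cell was -1.31 (SE 0.25, n = 2 per group, limma adjusted p = 3.42e-06). On the relative scale it was -0.67 (SE 0.08, adjusted p = 2.23e-04), or 1.60-fold lower. The 4 FOS probe sets had relative changes of -0.73 to -0.64. Of the 11946 genes, 2.87% fell at least as far.

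IER2 had signals of 163 and 127 with siMITF, against 274 and 362 with siCtrl. The log2 change per cell was -1.05 (SE 0.25, adjusted p = 1.77e-04) and the relative change -0.42 (SE 0.09, adjusted p = 0.00376). EGR1 had 132 and 99.4 with siMITF, against 226 and 279 with siCtrl. The change per cell was -1.03 (SE 0.25, adjusted p = 2.24e-04) and the relative change -0.40 (SE 0.08, adjusted p = 0.00418). The EGR1 fall relative to the median gene depended on the probe set. The 2 brightest had relative changes of -0.40 and -0.14, the other 4 had 0.06 to 0.35, and with the mean of the 6 the change was -0.01 (adjusted p = 0.933).

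JUN had signals of 72.0 and 59.0 with siMITF, against 72.0 and 81.2 with siCtrl, the smallest per-cell gap among the 9 (log2 change -0.19, SE 0.25, adjusted p = 0.471). After centring, its levels were 6.89 and 6.94 with siMITF, against 6.41 and 6.52 with siCtrl, with no overlap. The relative change was 0.44 (SE 0.10, adjusted p = 0.00616), and all 4 JUN probe sets lay at 0.28 to 0.44. Without a filter on low signal the change was 0.26 (adjusted p = 0.0790), and with its own variance the adjusted p was 0.0625.

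The other members followed the median gene more closely. FOSL1 had 49.7 and 41.1 with siMITF, against 81.8 and 97.7 with siCtrl. It had a per-cell change of -0.78 (SE 0.25, adjusted p = 0.00435) and a relative one of -0.15 (adjusted p = 0.230). JUNB had 82.9 and 66.4 with siMITF, against 107 and 126 with siCtrl. It had a per-cell change of -0.55 (SE 0.25, adjusted p = 0.0416) and a relative one of 0.08 (adjusted p = 0.344). The per-cell call was lost for FOSL1 without siMITF replicate 2 (adjusted p = 0.0969) or siCtrl replicate 2 (adjusted p = 0.104), and for JUNB without siMITF replicate 2 (adjusted p = 0.288), siCtrl replicate 1 (adjusted p = 0.0600) or siCtrl replicate 2 (adjusted p = 0.258). FOSL2 had 88.2 and 68.0 with siMITF, against 113 and 105 with siCtrl, and a relative change of 0.21 (95% interval -0.02 to 0.45, adjusted p = 0.129). FOSB had 52.0 and 51.0 with siMITF, against 57.2 and 98.6 with siCtrl, and JUND had 60.7 and 42.5, against 65.0 and 90.0. Their relative changes were 0.19 (adjusted p = 0.282) and 0.16 (adjusted p = 0.295).

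**Figure D3:**
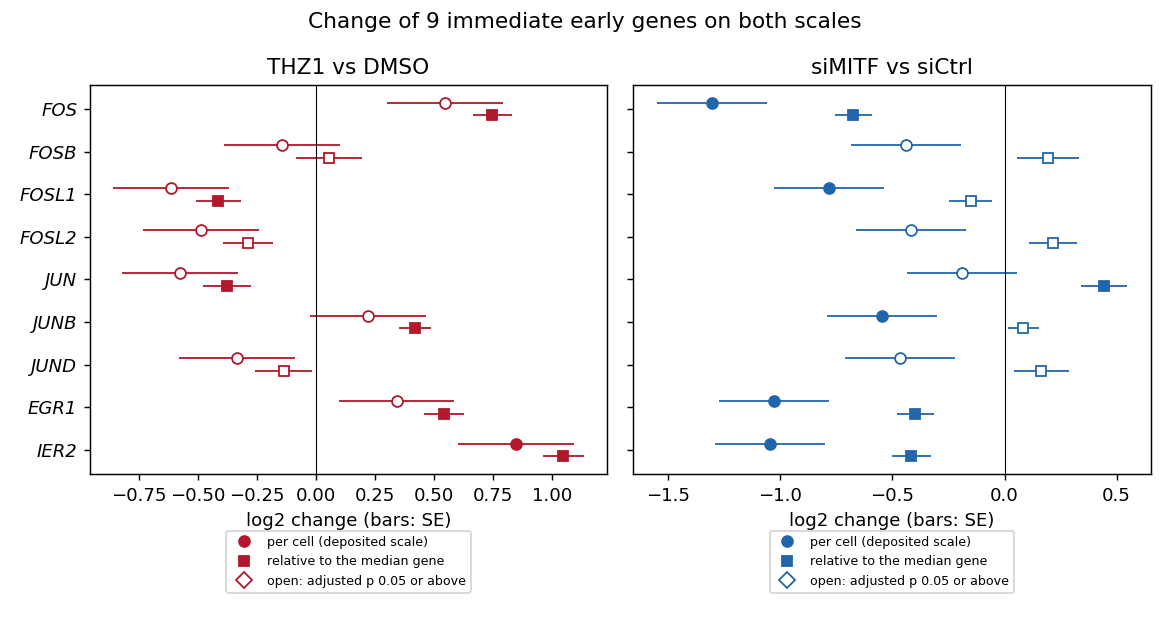
Log2 change of the 9 genes with THZ1 over DMSO and with siMITF over siCtrl, per cell (circles) and relative to the median gene (squares), with bars of 1 SE and open symbols where the adjusted p was 0.05 or above. IER2 is the only filled circle with THZ1 at 0.85, and FOS, IER2 and EGR1 lie right of 0 with THZ1 and left of 0 with siMITF.

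The THZ1 and siMITF changes differed for FOS, IER2, EGR1 and JUNB, where the THZ1 change was the higher, and for JUN, where it was the lower. FOSL2 differed in opposite directions on different probe sets and is counted by its brightest. These 4 of 9 higher and 2 of 9 lower stood beside 21.4% and 20.2% of all genes relative to the median gene. IER2 differed by 1.46 (SE 0.12, limma adjusted p = 3.44e-05), FOS by 1.42 (SE 0.12, adjusted p = 3.44e-05), EGR1 by 0.94 (SE 0.12, adjusted p = 2.92e-04) and JUNB by 0.34 (SE 0.10, adjusted p = 0.0188). JUN differed by -0.82 (SE 0.14, adjusted p = 0.00154), and FOSL2 on its brightest probe set by -0.50 (SE 0.15, adjusted p = 0.0227), against 0.50 on 11731599_a_at (adjusted p = 0.0136 in the fit over probe sets). The EGR1 difference depended on the probe set: 3 of the 6 lay at 0.72 to 0.94 and were called higher, as were 23.4% of probe sets, and 3 at 0.15 to 0.27 did not pass (adjusted p = 0.126 to 0.510). With the mean of the 6 it was 0.53 and still passed. Per cell 3 members passed, IER2 (1.90), FOS (1.85) and EGR1 (1.37), against 9.84% of genes higher, and 0 were lower, against 0.946%. At an unadjusted p under 0.05, 4 were higher, against 27.4% of genes, and 0 lower, against 2.24%. The EGR1 call per cell was lost without any 1 of 4 arrays, THZ1 replicate 2, DMSO replicate 1, siMITF replicate 2 and siCtrl replicate 2, with differences of 1.08 to 1.29 (adjusted p = 0.0683 to 0.130). JUNB lost the relative call without DMSO, siMITF or siCtrl replicate 1 (0.31 to 0.33, adjusted p = 0.0541 to 0.0616). FOSL2 lost it without replicate 1 of THZ1 or DMSO, either siMITF array or siCtrl replicate 2 (-0.52 to -0.33, adjusted p = 0.0540 to 0.0750).

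**Figure D4:**
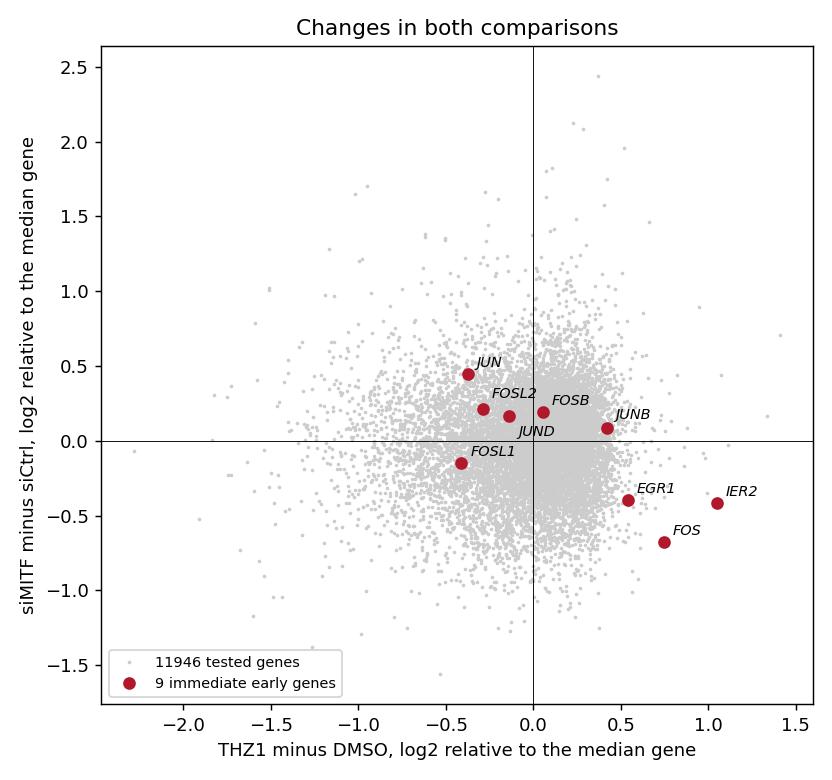
Change with siMITF over siCtrl (vertical) against change with THZ1 over DMSO (horizontal), both log2 relative to the median gene, for 11946 tested genes (grey) and the 9 immediate early genes (red). FOS, IER2 and EGR1 lie at the lower right, at 0.54 or more with THZ1 and -0.40 or less with siMITF, and JUN lies at the upper left at -0.38 and 0.44.

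Across the 4 groups, the levels relative to the median gene ran in opposite orders. On their brightest probe sets FOS and EGR1 were highest with THZ1, followed by DMSO, siCtrl and siMITF, and no 2 neighbouring groups overlapped. On 11734658_s_at and 11749852_s_at of FOS, the DMSO and siCtrl arrays overlapped. On 4 of the 6 EGR1 probe sets the siMITF mean was above the siCtrl mean. Mean log2 levels of FOS were 9.94 with THZ1, 9.19 with DMSO, 8.38 with siMITF and 9.06 with siCtrl. IER2 had the same order of means, but its DMSO and siCtrl arrays overlapped. On its brightest probe set JUN had the reverse order, at 5.94 with THZ1, 6.31 with DMSO, 6.91 with siMITF and 6.47 with siCtrl, again with no neighbours overlapping. THZ1 and DMSO overlapped on 11718396_x_at of JUN, and DMSO and siCtrl on 11718397_s_at. On 11763169_at FOSL2 had JUN's order, with an overlap between siCtrl and DMSO, while on 11731599_a_at both THZ1 arrays were above all other arrays. JUNB ran THZ1, siMITF, siCtrl and DMSO without overlap, and for FOSB and JUND each neighbouring pair overlapped. On its brightest probe set FOSL1 was highest with DMSO, which overlapped siCtrl, and lowest with THZ1. On 11724477_a_at, 11760284_a_at and 11760573_a_at the FOSL1 mean was highest with siMITF instead. In the step from DMSO to siCtrl, the treatments and the difference in ERCC signal between drug and siRNA arrays cannot be told apart.

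Genes around the members in the pathway moved in both directions. Among 12 other AP-1 partners, 7 were tested, and with THZ1 2 fell and 0 rose relative to the median gene, with 1 lower and 0 higher per cell. Over all tested genes, THZ1 gave 21.1% lower and 17.7% higher on the relative scale and 10.0% and 0.0753% per cell, and siMITF gave 24.7% and 19.5% on the relative scale and 63.4% and 0.326% per cell. The counts of all 5 lists stand beside these shares. MAF, a large MAF protein, had 215 and 282 with THZ1, against 445 and 543 with DMSO (relative change -0.75, adjusted p = 2.45e-04), and the small MAF protein gene MAFF had -0.32 (adjusted p = 0.0189). With siMITF 4 of 7 fell and 2 rose relative to the median gene, and 5 fell per cell, beside the 63.4% of all genes. ATF7, a CREB-related bZIP factor, had -0.83 (adjusted p = 6.34e-05), MAFF -0.72 (adjusted p = 2.43e-04) and MAF -0.46 (adjusted p = 0.00365).

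Of 5 EGR relatives and corepressors, 3 were tested. NAB2, which is induced by EGR1 and represses its activity, fell with THZ1, with signals of 145 and 208, against 278 and 391 with DMSO (relative change -0.66, adjusted p = 1.78e-04), and was also called per cell. NAB1, its relative, rose relative to the median gene (0.26, adjusted p = 0.0315), while EGR3 had -0.26 (adjusted p = 0.0665). With siMITF EGR3 rose on the relative scale, by 0.53 (adjusted p = 0.00213), while NAB1 had 0.18 and NAB2 0.06 and neither passed, though NAB2 was called lower per cell (-0.57, adjusted p = 0.0335). The EGR3 signals were dim and overlapped, at 74.0 and 47.2 with siMITF, against 64.2 and 65.3 with siCtrl. Its per-cell change was -0.10 (limma adjusted p = 0.706).

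Of 28 other immediate early genes, 26 were tested, and with THZ1 10 fell and 5 rose relative to the median gene, or 4 and 1 per cell. Their median relative change was -0.14, beside 0.04 for all genes. KLF10, a TGF-beta induced repressor, had 736 and 1085 with THZ1, against 445 and 582 with DMSO (relative change 0.99, adjusted p = 1.44e-05), and IER5L, a relative of IER2, rose by 0.77 (adjusted p = 5.14e-05). NR4A3, an orphan nuclear receptor, had 580 and 846 with THZ1, against 1252 and 1598 with DMSO (relative change -0.80, adjusted p = 4.48e-05). With siMITF 6 fell and 11 rose relative to the median gene, and 11 of 26 fell and 0 rose per cell, where 63.4% of all genes fell. NR4A3 fell there too (-1.18, adjusted p = 1.15e-05). Relative to the median gene SRF, the factor that binds the CArG box, rose by 0.66 (adjusted p = 1.10e-04) and NR4A2 by 0.58 (adjusted p = 2.25e-04). Their deposited signals overlapped between the groups. SRF had 96.3 and 77.4 with siMITF, against 73.5 and 96.1 with siCtrl, and NR4A2 had 248 and 191, against 202 and 254. Like JUN, SRF was dim, where the added 16 can lift a relative change.

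Of 21 upstream regulators, 16 were tested, and with THZ1 5 fell and 2 rose relative to the median gene, or 2 and 0 per cell. CREB1, which encodes a CREB protein, had 59.4 and 86.4 with THZ1, against 189 and 261 with DMSO (relative change -1.24, limma adjusted p = 5.34e-06). MRTFB, an SRF cofactor, had -0.89 (limma adjusted p = 1.42e-05). ELK3, a ternary complex factor, had -0.39 (adjusted p = 0.00306). With siMITF 4 of 16 fell and 1 rose relative to the median gene, where 24.7% and 19.5% of all genes did, and 14 fell per cell, beside 63.4% of all genes. Relative to the median gene MRTFA, another SRF cofactor, rose by 0.56 (adjusted p = 0.00169), the JNK2 gene MAPK9 had -0.38 (adjusted p = 0.00264) and the RSK2 gene RPS6KA3 -0.35 (adjusted p = 0.00559). The MRTFA signals were dim and overlapped, at 97.8 and 69.4 with siMITF, against 73.5 and 104 with siCtrl.

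Of 20 reported AP-1 targets, 15 were tested, and with THZ1 5 fell and 5 rose relative to the median gene, or 2 and 0 per cell. The cytokine gene IL6 had 169 and 219 with THZ1, against 361 and 432 with DMSO (relative change -0.78, adjusted p = 3.37e-05), heme oxygenase gene HMOX1 had -0.50 (adjusted p = 3.85e-04) and TGFB1 0.44 (adjusted p = 9.48e-04). With siMITF 3 fell and 5 rose relative to the median gene, and 9 of 15 fell per cell, beside 63.4% of all genes. The collagenase gene MMP1 had 43.9 and 35.3 with siMITF, against 104 and 136 with siCtrl (relative change -0.65, adjusted p = 7.17e-04), while its inhibitor gene TIMP1 (0.50, adjusted p = 4.82e-04) and IL6 (0.46, adjusted p = 7.22e-04) rose relative to the median gene. The deposited signals of TIMP1 (905 and 731 with siMITF, against 802 and 989 with siCtrl) and IL6 (301 and 237, against 283 and 322) overlapped. The median relative change of the list was 0.16 with THZ1, beside 0.04 for all genes, and 0.08 with siMITF, beside 0.0014.

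In the per-cell fit all genes share 1 SE of 0.25 taken as known without error, which makes those p-values too small. With each gene's own variance 0 members and 0 of all 11946 genes passed per cell in either comparison (limma without variance sharing). At an unadjusted p under 0.05 there were 3 members with THZ1, against 12.1% of genes, and 4 with siMITF, against 47.8%. Relative to the median gene, FOS, JUNB, EGR1 and IER2 with THZ1, beside 27.0% of genes, and FOS, EGR1 and IER2 with siMITF, beside 30.9%, still passed.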

How the data were processed

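Per the labels' protocols, total RNA of SK-MEL-5 cells was spiked with ERCC RNA in proportion to cell number and hybridised to Affymetrix 3' expression arrays. Per the submitters' processing notes, the authors summarised probe sets with MAS5, version not given. The values the authors deposited are linear intensity per probe set. The series' design text calls them cell number-normalized, by a method not given in the sources used here. Precision is limited by having 2 arrays a group.

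The members and gene lists were chosen with earlier results of these data known. Of 49495 probe sets, 45284 had 1 gene symbol, 1333 several and 2878 none. Gene IDs of 45214 were found among RefSeq genes (GRCh38.p14), and 70 sets keep their old symbol. The analysis used log2(signal + 16) of each gene's brightest probe set. Genes at or above the 40th percentile of mean log2 signal, a signal of 39.2, were tested (11946 of 18244, with all 9 members). All 8 arrays entered 1 model of the 4 group means (limma 3.58.1, R 4.3.3), with Benjamini-Hochberg adjustment across tested genes. Other probe sets came from the same fit over 27170 probe sets. For the relative scale, each array was shifted by the median, over tested genes, of its distance from the gene's 8-array mean. It has 5.97 prior and 4 residual degrees of freedom, and the per-cell scale an infinite prior. Named list genes were up to 3 per list and comparison with the lowest adjusted p relative to the median gene. The 3 genes most correlated with each member called in any comparison, MITF, CDK7 and, chosen after its values were seen, LUM were also named. Alternatives were the pseudocount, the filter, the mean of probe sets, own variances, a replicate block, ERCC centring, quantile normalization, the arrays of each comparison alone and each array left out.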

Additional observations from a re-analysis of the deposited data

Results flagged for a closer look

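The THZ1 change and the siMITF change of 6 members differed by the test of the difference itself (limma, adjusted p under 0.05), of which 3 also differed per cell. IER2 differed by 1.46 relative to the median gene and by 1.90 per cell. FOS differed by 1.42 relative to the median gene and by 1.85 per cell, and EGR1, on its brightest probe set, by 0.94 and 1.37. Over the 6 EGR1 probe sets the relative difference ran from 0.15 to 0.94. JUNB differed by 0.34 relative to the median gene. JUN differed by -0.82 and FOSL2, on its brightest probe set, by -0.50, both relative to the median gene. The FOSL2 value holds for that probe set: 11731599_a_at differed by 0.50 in the opposite direction (adjusted p = 0.0136 in the fit over probe sets).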

How the results depend on the processing

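Counts of members passing, of 9, stayed within 1.5 times relative to the median gene under every alternative run: 4 to 7 with THZ1 when single arrays were left out (6 as reported), 4 to 5 with siMITF (4) and 4 to 7 for the difference (6). Per cell they were less stable, and the causes were not tested. With THZ1 the per-cell count was 1 as reported, 0 to 1 with single arrays left out, 0 with each gene's own variance, 0 with ERCC centring on all 100 probe sets and 2 with the 47 over a mean signal of 50, an alternative added after seeing the data. With siMITF it was 5 as reported, 3 to 6 with single arrays left out and 0 with own variances, and for the difference 3, 2 to 4 and 0. The labels give no shared batch for a replicate number, and deviations of same-numbered arrays correlated at 0.11 for THZ1 with DMSO and -0.18 for siMITF with siCtrl. A replicate block gave 2, 5 and 3 members per cell. With the siRNA numbers crossed, also added after seeing the data, it gave 6, 8 and 5. The sign of changes near 0 turned for members that did not pass: without a filter JUNB had -0.10 and JUND -0.0175 with siMITF, and with the mean of probe sets FOSL1 had 0.0101, also with siMITF, all relative to the median gene. With single arrays left out, FOSB ran from -0.47 to 0.19 per cell and -0.0736 to 0.18 relative with THZ1, and from -0.0055 to 0.39 relative with siMITF. Its difference ran from -0.0353 to 0.625 per cell and -0.34 to 0.0604 relative. JUND ran from -0.70 to 0.0296 per cell and -0.30 to 0.0275 relative with THZ1, with a per-cell difference of -0.23 to 0.50, and FOSL2 had a per-cell difference of -0.29 to 0.15. Of 957 values of single members under alternatives, 862 kept direction and call, 45 lost the call, 33 gained it and 17 changed sign.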

Other observations

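Most members are short genes. JUNB spans 1830 bases of chromosome 19, JUND 1929 (chromosome 19), JUN 3257 (chromosome 1), FOS 3403 (chromosome 14), EGR1 3825 (chromosome 5) and IER2 4501 (chromosome 19), against a median of 28336.5 bases over tested genes (RefSeq, GRCh38.p14). FOSB spans 7184 bases, FOSL1 8497 and FOSL2 24460. Among the 1293 tested genes of up to 5000 bases, 21.0% were higher and 20.6% lower with THZ1 relative to the median gene, against 17.7% and 21.1% of all.

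The tested genes most like a member across the 8 arrays, by Pearson r of levels relative to the median gene, are given as a description, since the arrays fall in 4 groups and share their drug or siRNA set. FOS was nearest to COX17, MGST2 and UGGT2 (r = 0.99 for each), with 1022 genes above 0.9. IER2 was nearest to BCLAF1 (r = 0.996), KTN1 and KLF10 (r = 0.99 for both), and EGR1 to HSD17B10, PXMP2 and HPRT1 (r = 0.996 to 0.998). JUN was nearest to ZNF202, ACVR2B and POLH (r = 0.99 for each), FOSL2 to DYNC2I1, PRICKLE1 and ZNF616 (r = 0.98 to 0.99), JUNB to COX6C, CCDC183 and SEM1 (r = 0.98 for each) and FOSL1 to KLHL23, CCP110 and GAPVD1 (r = 0.93 to 0.98), with 25 genes above 0.9 for FOSL1.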
